A study of Mus musculus with 4 samples.

Results

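Gfap-low astrocytes were cells of the neonatal mouse brain that carried RNA of the astrocyte genes Slc1a3 and Aqp4 with little or no RNA of the intermediate filament gene Gfap. They were chosen by their own counts: at least 20 gene counts in all, at least 5 of Slc1a3, at least 3 of Aqp4, at most 2 of Gfap, fewer than 3 of Csf1r, fewer than 5 of Pdgfra and fewer than 5 of Cldn5. The rule found 31842 of 794833 cells, with 7827, 7046, 6453 and 10516 on coverslips 1 to 4. The samples were coronal sections through the barrel cortex of mice at postnatal day 5, cut at 10 µm, 24 h after the whiskers on the right side of the snout were lesioned at postnatal day 4. Each of the 4 coverslips held 1 section of a Cx3cl1 knockout mouse, which lacks the chemokine fractalkine, and 1 of a wild-type mouse, and all of these mice had the lesion. Coverslips 3 and 4 came from female mice and coverslips 1 and 2 from male mice. MERFISH, which reads barcoded RNA molecules in place by repeated imaging, counted 140 genes, most of them of the Wnt pathway or markers of brain cell types. The files do not name the genotype, hemisphere or region of a cell, so each value below pools a knockout and a wild-type section and both hemispheres.

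Astrocytes clear glutamate and potassium from the space around neurons, supply them with metabolites and lipids, and wrap vessels and synapses. Protoplasmic astrocytes of grey matter carry little Gfap in the healthy rodent brain, whereas fibrous astrocytes of white matter, astrocytes at the brain surface and reactive astrocytes carry more. Wnt ligands are lipid-bearing secreted proteins that bind Frizzled receptors and Lrp co-receptors, and secreted antagonists and heparan sulfate proteoglycans of the glypican and syndecan families shape their reach.

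The chosen cells had a median of 182, 172, 214 and 276 gene counts on coverslips 1 to 4, and blanks, unused barcodes whose counts can only come from decoding errors, made up 1.09% to 1.21% of their counts plus blanks. Coverslip 4 was the deepest, with 76555311 gene counts in all against 33519204 to 44924894 on the others. Aldh1l1, a folate enzyme gene widely used to mark astrocytes and not part of the gate, was counted in 87.1%, 85.1%, 89.7% and 95.8% of the cells. Sox9, a transcription factor gene of the astrocyte lineage that was not used by the gate either, was counted in 90.7% to 96.0%. Of these markers Aldh1l1 carries the label of astrocytes more than Sox9 does. Per 1000 counts of genes that no gate used, Aldh1l1 averaged 28.7 in these cells and 2.99 in oligodendrocyte precursors. Sox9 averaged 30.1 and 24.9, and so hardly set them apart from those precursors. Slc1a3, the glutamate transporter gene that chose them, had a median of 14 to 15 counts per cell, and Aqp4, the water channel gene, had 6 to 8. A count of Gfap was found in 42.8% to 49.4% of the cells.

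At 2 counts of Gfap, just inside, 5345 cells averaged 5.55 counts of Aldh1l1 and 9.11 of Glul, and at 3 counts, just outside, 3528 cells averaged 5.22 and 8.92. Both averages were slightly higher on the inner side of the Gfap limit, where the cells were deeper (median 226 gene counts, against 216). Per 1000 counts of genes that no gate used, Aldh1l1 was at 26.7 inside and 26.1 outside. Glul was at 46.5 inside and 47.7 outside, so its direction depends on the scale. At 5 counts of Slc1a3, just inside, 2142 cells averaged 48.1 counts of Meg3, a noncoding RNA abundant in neurons, and at 4 counts, just outside, 2486 cells averaged 59.4.

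Markers of other cell types were counted at unequal levels. Among microglial markers, Cx3cr1 stood in Gfap-low astrocytes at 1.06%, P2ry12 at 2.24%, C1qa at 3.54%, Tmem119 at 4.09% and Itgam at 9.36% ± 2.30 (SD) of their level in cells with at least 3 counts of Csf1r. Cspg4 and Sox10 summed to 0.439 to 0.759, against 13.2 to 21.2 in oligodendrocyte precursors. The border macrophage marker Mrc1 stood at 0.0446 to 0.0576, and the endothelial marker Pecam1 at 0.126 to 0.200 counts per cell, and none of these markers was at 0. C1qa, Cspg4 and Sox10 lay above all blanks on 4 coverslips, Itgam and Pecam1 on 2, and Cx3cr1, P2ry12, Tmem119 and Mrc1 on 0 of 4, so the levels of these last 4 cannot be told apart from false decoding. RNA of neuronal markers was far more common. The 9 neuronal markers Slc17a6, Cux2, Rorb, Syt6, Gad1, Gad2, Sst, Pvalb and Vip summed to 6.02 to 12.02 counts per Gfap-low astrocyte, against 16.4 to 27.2 per neuron. Rorb was the exception among them, at 2.24 counts per Gfap-low astrocyte or 116% of its level in neurons, and 86.7% without the cells over 5 Meg3 counts. The other 8 stood at 25.3% to 73.0%. Rorb is part of the sum above, although it did not set neurons apart from these cells. Meg3 had a median of 1 to 2 counts, but 12.5% to 17.9% of the cells held 30 or more, which is the limit that defined neurons. Every comparison was therefore also made without the cells that held more than 5 counts of Meg3, which were 21.2% to 27.9% of Gfap-low astrocytes; this alternative was chosen after the data were seen.

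Gfap-low astrocytes made up 4.00% ± 0.602 of all kept cells (SD, n = 4 coverslips) and 49.4% ± 4.40 of the astrocyte gate, which is the same rule without the Gfap limit. The other 33146 cells of that gate, with 3 or more Gfap counts, are called Gfap-high astrocytes below. Since the gate fixes these shares, they are given as a description with no test. Thinning every cell to 100 gene counts, which leaves out shallower cells, gave a share of 59.7% ± 3.43; the parts of depth and of the cells left out were not separated.

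Where the cells lay was read from the neurons around them. A territory was called thalamic-type where at least 30% of the 50 nearest neurons, and more than of any other type, held at least 3 counts each of Slc17a6 and Tcf7l2, which mark glutamatergic neurons of the thalamus. Upper-cortical-type territory was set by Cux2, a gene of upper cortical layers, in neurons with at most 2 counts of Gad1, and striatal-type territory by Bcl11b with Gad2. The rule uses no anatomical outline, and all other places were called other territory. Gfap-low astrocytes numbered 5019 in thalamic-type, 6711 in striatal-type, 5543 in upper-cortical-type and 14569 in other territory.

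The share of the astrocyte gate that was Gfap-low depended on place. It was 79.4%, 77.8%, 75.0% and 75.1% on coverslips 1 to 4 in thalamic-type territory and 64.8%, 59.95%, 61.6% and 58.96% in upper-cortical-type territory. In striatal-type territory it was 57.4%, 45.9%, 43.5% and 43.0%, and in other territory 48.7%, 41.8%, 39.9% and 37.9%. The thalamic-type share was the highest on every coverslip and did not overlap with the upper-cortical-type share, which in turn did not overlap with the striatal-type or other shares. After thinning to 100 gene counts the mean shares were 84.3%, 70.6%, 61.1% and 53.0%, in the same order. Distance from the outline of the section also mattered. Within 100 coordinate units of the outline 20.4% ± 1.505 of the gate was Gfap-low, at 100 to 200 units 48.5% ± 5.90, at 200 to 500 units 72.3% ± 3.79, at 500 to 1000 units 55.2% ± 7.66 and beyond 1000 units 42.1% ± 5.15 (SD, n = 4). The share was lowest in the outermost strip, highest at 200 to 500 units and lower again beyond. After thinning, the outermost strip was at 34.5% ± 8.17 while the strips outward to inward from 100 units on were at 61.0%, 82.6%, 65.7% and 50.2%, in the same order.

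**Figure D1:**
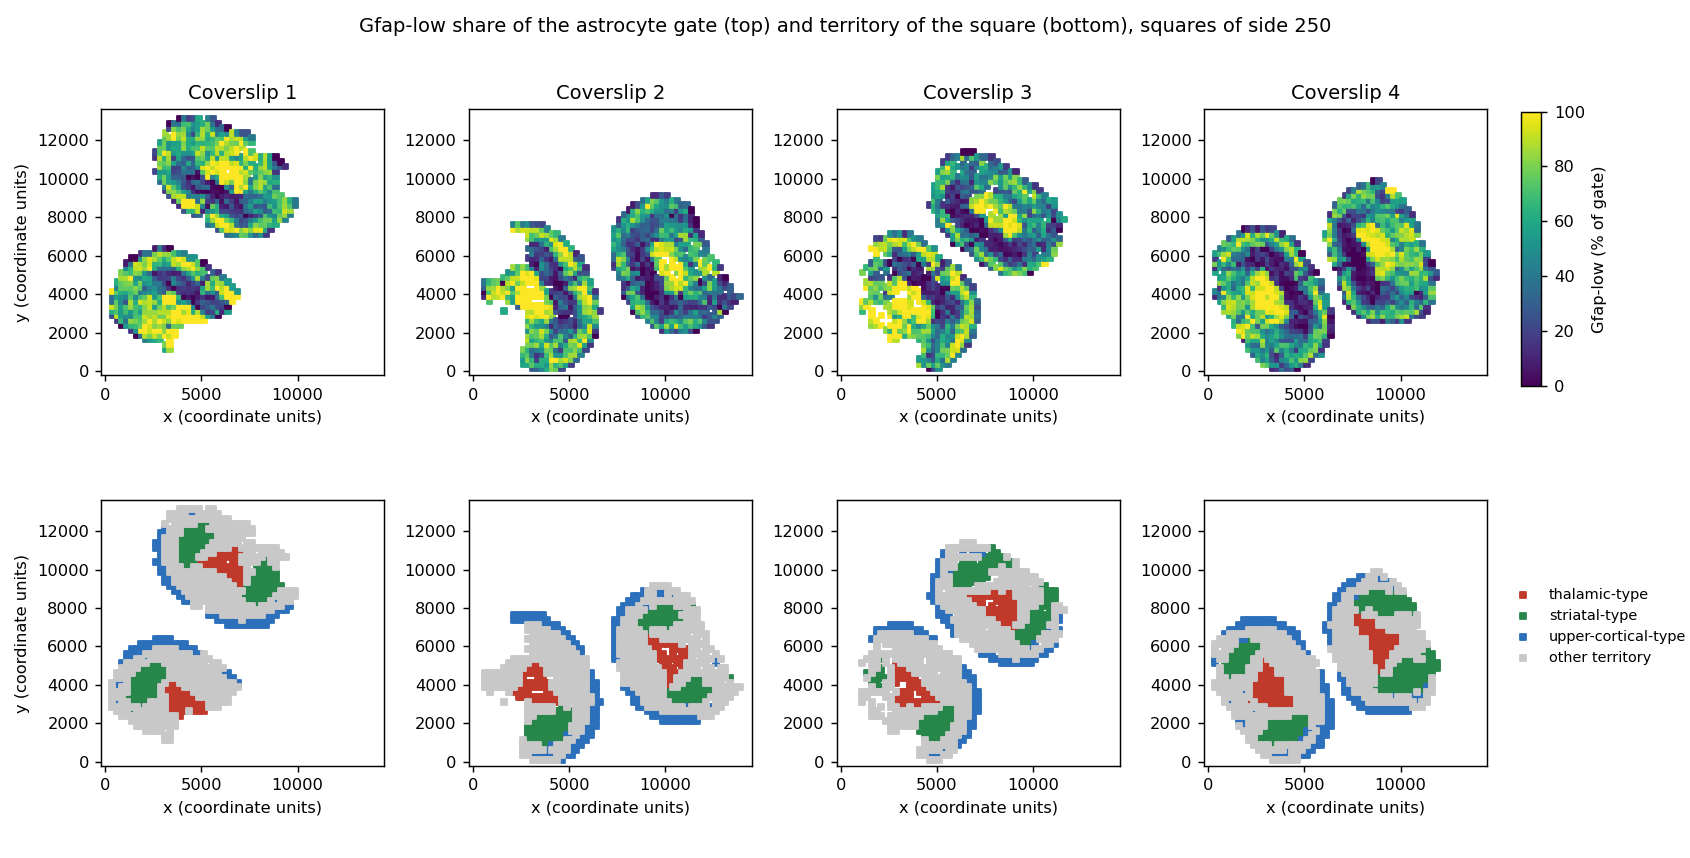
Maps of the 4 coverslips in squares of side 250 with at least 5 cells of the astrocyte gate; x and y are positions in coordinate units, colour in the top row is the percentage of the gate that is Gfap-low, and colour in the bottom row is the territory most common among those cells. On every section the squares of high share lie in the thalamic-type core and in upper-cortical-type territory, with a band of low shares between them and along the outline.

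The distance from a Gfap-low astrocyte to the nearest cell with at least 5 counts of Cldn5, a tight junction gene of vessels, had a median of 43.5, 43.2, 41.9 and 38.7 units on coverslips 1 to 4. For Gfap-high astrocytes it was 36.6, 37.7, 34.8 and 33.4 units. Gfap-low astrocytes were farther from such cells on each coverslip. For oligodendrocyte precursors it was 41.7, 41.8, 41.5 and 38.65 units, nearer than the Gfap-low median on each coverslip but by little on coverslip 4, where the Gfap-low median was 38.67. For neurons it was 43.17, 43.24, 43.28 and 39.84 units, nearer than Gfap-low astrocytes on coverslip 1 and farther on the others, with almost no gap on coverslip 2.

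Gfap-low astrocytes were then compared with oligodendrocyte precursors (OPCs), the dividing cells that give rise to oligodendrocytes, to show what sets them apart from another glial cell. OPCs were the 45367 cells with at least 5 counts of Pdgfra, at most 2 of Aqp4, fewer than 3 of Csf1r and fewer than 5 of Cldn5. Levels are given per 1000 counts of the 133 genes that no gate used, summed per coverslip, and a gene was called when edgeR's quasi-likelihood test found a difference of more than 2-fold (adjusted p below 0.05) that ran the same way on all 4 coverslips and the higher group lay above all 40 blanks. Of the 133 genes tested, 13 were called higher (9.77%) and 10 lower (7.52%). More than 5 counts of Meg3 were held by 28.1% to 40.7% of OPCs, against 21.2% to 27.9% of Gfap-low astrocytes. Without such cells 17 genes were higher and 16 lower, and 13 of the higher and 8 of the lower calls were made again. The gates were set on counts of the same cells, so a gene that is counted along with Slc1a3 and Aqp4 differs partly through that choice.

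Of 9 astrocyte identity and lipid genes 4 were higher, namely Aldh1l1, Apoe, Gli3 and Glul, beside 9.77% of all genes. Aldh1l1 stood at 29.3, 24.2, 27.8 and 33.4 per 1000 on coverslips 1 to 4, against 2.72, 2.41, 2.83 and 3.98 in OPCs. Apoe, the main lipid carrier of the brain, stood at 229, 183, 243 and 212, against 52.7, 40.01, 56.95 and 49.4. The groups did not overlap for either gene, and the log2 differences were 3.28 ± 0.06 (SE, adjusted p = 5.0e-08) for Aldh1l1 and 2.13 ± 0.02 (adjusted p = 1.1e-08) for Apoe. Glul, the glutamine synthetase gene that serves glutamate recycling, was higher by 1.57 ± 0.04 on the log2 scale, and Aldoc, a glycolytic aldolase gene, by 1.77 ± 0.04. Gli3, a transcription factor gene of Hedgehog signalling, was higher by 1.96 ± 0.07, and Sox7, of the SOX transcription factor family, by 1.60 ± 0.05. Rorb, a nuclear receptor gene of cortical layer 4 neurons, and Bcl2, which restrains apoptosis, were higher by 1.32 ± 0.06 and 1.2 ± 0.05.

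Among Wnt pathway and contact genes, Daam2, a formin that acts downstream of Wnt receptors, stood at 14.9, 20.5, 16.1 and 15.9 per 1000 in Gfap-low astrocytes, against 2.25, 2.42, 2.34 and 1.92 in OPCs. Its log2 difference of 2.91 ± 0.07 (adjusted p = 2.5e-07) was the largest of the 15 intracellular Wnt pathway genes. No other of them was called with the main scaling, where Tcf7l1 was at 1.04. Tcf7l1 was called higher by cell volume (1.51), with TMM factors (1.35), with DESeq2 (1.34) and without the cells over 5 Meg3 counts (1.19). Slc9a3r1, a scaffold gene whose protein binds ezrin, was higher by 2.13 ± 0.04, and the syndecan gene Sdc4 by 1.85 ± 0.09. Of 19 Wnt receptor genes 2 were higher, beside 9.77% of all genes, Fzd10 by 1.52 ± 0.04 and Fzd2 by 1.16 ± 0.04, and Adgra2, whose protein serves as a co-receptor for Wnt7 ligands, was lower at -2.18 ± 0.12. With the main scaling none of 19 genes of Wnt ligands and their secretion was higher, and the ligand gene Wnt4 was lower (log2 -1.27 ± 0.10), beside 9.77% and 7.52% of all genes. The ligand gene Wnt3 (0.82) was called higher by cell volume (1.29), with TMM factors (1.13) and without the cells over 5 Meg3 counts (1.23). DESeq2 did not call Wnt3, and its level in OPCs was not above all blanks on every coverslip. Without coverslip 1 the adjusted p of Wnt4 was 0.11. Of 7 antagonist genes 3 were lower, beside 7.52% of all genes, namely the Wnt-cleaving protease gene Trabd2b (log2 -1.58 ± 0.06), Frzb (-1.25 ± 0.07) and Sfrp2 (-1.13 ± 0.04). None of these 3 was called when counts were scaled to summed cell volume. Without coverslip 3 the value of Sfrp2 was -1.13 and its adjusted p was 0.058.

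The lineage genes of OPCs were nearly absent. Sox10, a transcription factor gene of the oligodendrocyte lineage, stood at 1.09, 1.30, 1.05 and 1.45 per 1000, against 55.7, 61.9, 58.2 and 67.6 in OPCs, and Cspg4, which encodes the NG2 proteoglycan, at 1.95, 1.60, 2.08 and 1.504, against 66.5, 63.7, 74.9 and 57.4. Their log2 differences were -5.65 ± 0.05 and -5.21 ± 0.05. The glypican gene Gpc3 was also lower (log2 -1.77 ± 0.14), as were the collagen gene Col4a6 (-1.48 ± 0.09) and Nlgn2 (-1.10 ± 0.02), whose protein acts at inhibitory synapses. In 6 of the 23 called genes the lower level was not above all 40 blanks on every coverslip: Gli3, Sox7, Gpc3, Trabd2b, Col4a6 and Frzb. Frzb and Trabd2b were not called without the cells over 5 Meg3 counts, though their differences there, -1.87 and -1.78, were no smaller. All 13 higher calls also held when counts were scaled to summed cell volume and with TMM factors, whereas 4 of the 10 lower calls did so, namely Sox10, Cspg4, Adgra2 and Gpc3. The median log2 difference of all genes was -0.35 with the main scaling, 0.12 by volume and -0.04 with TMM factors, and the split of higher to lower calls was 19 to 4 by volume and 18 to 5 with TMM factors.

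**Figure D2:**
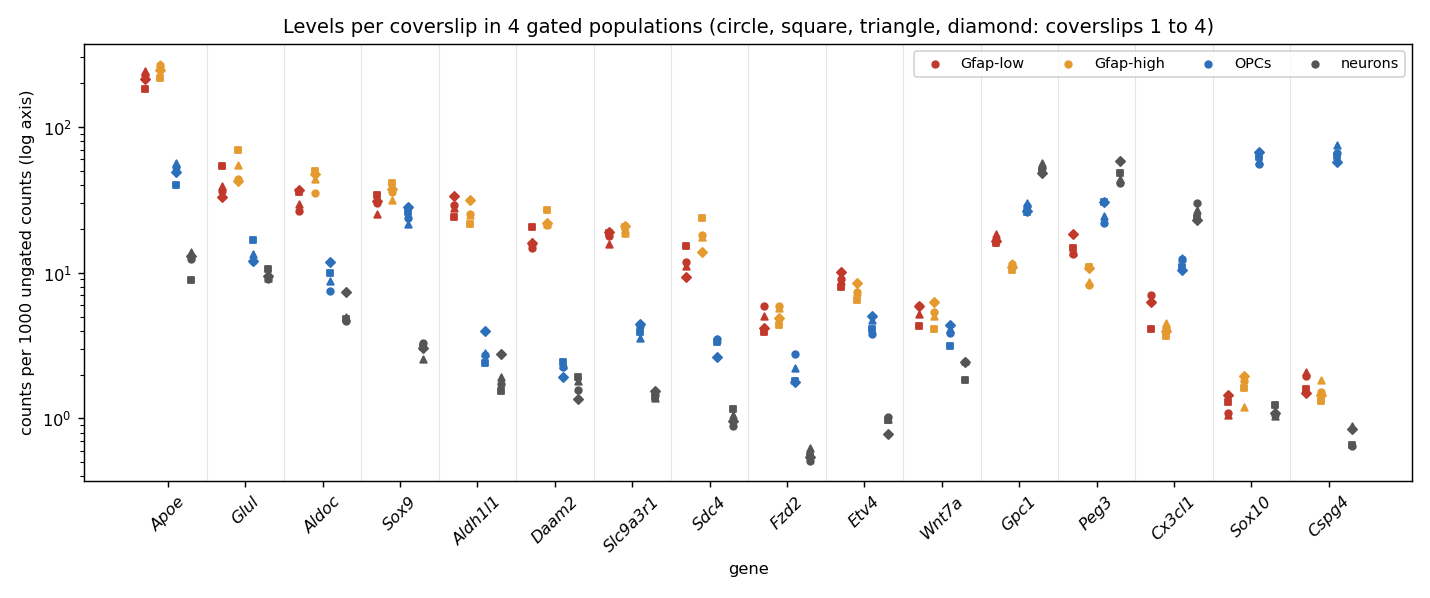
Counts per 1000 ungated counts (log axis) of 16 genes on each of the 4 coverslips in Gfap-low astrocytes, Gfap-high astrocytes, OPCs and neurons, with 1 point per coverslip. Both astrocyte groups lie far above OPCs and neurons for Aldh1l1, Apoe, Daam2, Slc9a3r1 and Sdc4, Sox9 is shared with OPCs, and Sox10 and Cspg4 stand out in OPCs.

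The comparison with neurons shows how much of the panel separates astrocytes from the cells they surround. Neurons were the 360285 cells with at least 30 counts of Meg3 and at most 2 of Slc1a3 that also met the Gfap-low limits on Csf1r, Pdgfra and Cldn5. Here 22 of 133 genes were higher (16.5%) and 19 lower (14.3%), again past 2-fold. Of 9 astrocyte identity and lipid genes 8 were higher, beside 16.5% of all genes. Apoe led (log2 4.18 ± 0.06, adjusted p = 3.5e-07), with 229, 183, 243 and 212 per 1000, against 12.4, 8.94, 13.97 and 13.03 in neurons. Sox9 stood at 30.0, 34.4, 25.1 and 30.9, against 3.29, 3.08, 2.56 and 3.04, a log2 difference of 3.33 ± 0.05. Etv4, an ETS transcription factor gene that responds to fibroblast growth factors, was higher by 3.26 ± 0.12. Against OPCs neither was called: Sox9 was at 0.27 ± 0.05 on the log2 scale, and Etv4 stood at 9.07, 8.01, 8.84 and 10.1 in Gfap-low astrocytes and at 3.82 to 5.01 in OPCs (log2 1.03 ± 0.06, adjusted p = 0.55 against 2-fold).

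Fzd2 stood at 5.90, 3.93, 5.07 and 4.19 per 1000, against 0.508, 0.552, 0.624 and 0.545 in neurons (log2 3.08 ± 0.13, adjusted p = 1.5e-05). With Fzd10 (log2 1.66 ± 0.07) and the co-receptor gene Lrp5 (1.57 ± 0.06), 3 of 19 Wnt receptor genes were higher, beside 16.5% of all genes, and none was lower. Sdc4 was higher by 3.53 ± 0.10, Slc9a3r1 by 3.62 ± 0.04 and Ezr, the ezrin gene of fine astrocyte processes, by 2.47 ± 0.12. Wnt7a was the 1 ligand gene called higher, by 1.22 ± 0.05, with 5.87, 4.32, 5.17 and 5.92 per 1000 in Gfap-low astrocytes, against 2.42, 1.83, 2.46 and 2.45 in neurons. Tcf7l1, a transcription factor gene at the end of the Wnt pathway, was higher by 2.28 ± 0.12 and Pdgfrb, better known from mural cells, by 2.09 ± 0.07. In 18 of the 22 genes called higher the level in neurons was not above all blanks, so the low side of those differences cannot be told apart from false decoding; Apoe, Glul, Aldoc and Sox2 were the exceptions.

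Of the 9 neuronal markers 6 were lower than in neurons, beside 14.3% of all genes: Syt6 (log2 -1.83 ± 0.03), Sst (-1.91 ± 0.10), Gad1 (-1.54 ± 0.03), Gad2 (-1.47 ± 0.04), Slc17a6 (-1.52 ± 0.03) and Cux2 (-1.21 ± 0.05). Vip (-1.10), Pvalb (-0.37) and Rorb (0.31) were not called. Bcl11b, outside that list, was at -1.83 ± 0.05. Peg3, an imprinted gene, was at -1.66 ± 0.03, the glypican gene Gpc1 at -1.61 ± 0.02 and the ligand gene Wnt16 at -1.94 ± 0.06. Cx3cl1, the gene the study deleted, stood at 7.02, 4.09, 6.47 and 6.27 per 1000, against 30.2, 23.8, 27.03 and 23.01 in neurons, each a sum over a knockout and a wild-type section. Without the cells over 5 counts of Meg3 all 41 calls were made again, with Cx3cl1 at -3.41 and Gad1 at -2.64. Of the 19 lower calls 7 held under all 3 scalings, and of the 22 higher calls 21 did; the median log2 difference of all genes was -0.61, -0.71 by volume and -0.10 with TMM factors, which gave 26 higher and 7 lower. Porcn, at -1.10 ± 0.04, and Sdc1, at -1.08 ± 0.04, were called with all coverslips (adjusted p = 0.021 and 0.029). Porcn had an adjusted p of 0.051 without coverslip 1 and 0.077 without coverslip 3, and Sdc1 had 0.052, 0.066 and 0.056 with coverslip 2, 3 or 4 left out.

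Within the astrocyte gate, Gfap-low astrocytes were compared with Gfap-high astrocytes to show which other genes change with Gfap. The test asked for more than 1.2-fold, and 25 of 133 genes were higher (18.8%) and 17 lower (12.8%). Vim, the other intermediate filament gene of astrocytes, stood at 8.95, 10.5, 9.17 and 11.1 per 1000 in Gfap-low astrocytes, against 20.8, 17.8, 19.2 and 19.97 in Gfap-high astrocytes. The groups did not overlap (log2 -0.97 ± 0.07, adjusted p = 6.5e-05). Sfrp1, a secreted Wnt antagonist gene, stood at 2.55, 2.92, 2.62 and 2.33, against 5.74, 4.73, 4.74 and 4.71 (log2 -0.93 ± 0.07). Id1, a target of bone morphogenetic proteins, was lower (log2 -0.78 ± 0.04), as were Thrsp (-0.76 ± 0.04), which regulates lipid synthesis, Pdgfrb (-0.75 ± 0.04), the homeobox gene Emx2 (-0.71 ± 0.09), Sdc4 (-0.63 ± 0.02) and Ezr (-0.59 ± 0.06). Of 19 Wnt receptor genes Fzd1 (log2 -0.51 ± 0.03) and Lrp5 (-0.48 ± 0.03) were lower, beside 12.8% of all genes. Of 9 astrocyte identity and lipid genes 5 were lower, beside 12.8% of all genes, and none was higher: Vim, Id1, Emx2, Gli3 (-0.45 ± 0.03) and Glul (-0.37 ± 0.03). All 17 lower calls held under the 3 scalings, which gave 20 higher and 22 lower by volume and 20 higher and 21 lower with TMM factors. Of these lower genes, 14 were also called without the cells over 5 Meg3 counts; Daam2, Sox10 and Glul were the exceptions, with -0.27, -0.40 and -0.29 there.

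The higher genes were of a different kind. Slc17a6, the vesicular glutamate transporter gene of thalamic neurons, stood at 3.85, 3.59, 3.95 and 3.09 per 1000, against 1.13, 1.202, 1.38 and 1.10 in Gfap-high astrocytes (log2 1.59 ± 0.05, adjusted p = 1.4e-06). The ligand gene Wnt3 was higher by 1.43 ± 0.07, Fzd10 by 1.21 ± 0.08, Cux2 by 1.18 ± 0.04, Tcf7l2 by 1.10 ± 0.04 and the syndecan gene Sdc3 by 1.01 ± 0.03. Wnt3 stood at 1.79, 1.71, 2.08 and 2.10, against 0.676, 0.710, 0.662 and 0.799, a level in Gfap-high astrocytes that was not above all blanks. Of 4 adhesion and survival genes Peg3 (0.65 ± 0.05) and Nlgn2 (0.45 ± 0.03) were higher, beside 18.8% of all genes. RNA of neuronal markers moved with these genes. The 9 neuronal markers, Rorb among them, summed to 6.02 to 12.02 counts per Gfap-low cell and to 4.38 to 7.85 per Gfap-high cell. More than 5 counts of Meg3 were held by 21.2% to 27.9% of Gfap-low cells, against 14.8% to 20.2% of Gfap-high cells. Without such cells, 14 of the 25 higher calls were made again, among them Slc17a6 (log2 1.33), Wnt3 (1.59), Fzd10 (1.32), Tcf7l2 (1.08), Sdc3 (0.88), Wnt7b (0.55) and Fzd9 (0.56). Prkce, Sdc1, Rorb, Nlgn2 and Gad2 were among those no longer called. Territory also differed between the groups, as the shares above show, and its part in these differences was not tested.

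Levels were also followed over classes of Gfap count. In cells with 0, 1 and 2 counts of Gfap, Vim averaged 9.27, 10.1 and 11.6 per 1000, and in cells with 3, 4 to 5, 6 to 10, 11 to 30 and over 30 counts it averaged 13.1, 14.4, 15.7, 18.4 and 33.02. Fzd10 ran the other way, with 7.44, 5.77 and 4.31 per 1000 inside the limit and 3.67, 3.15, 2.71, 2.40 and 2.77 outside it. Aldh1l1 hardly moved, at 29.7, 27.995 and 26.7 inside and 25.5 to 26.2 outside. Sfrp1 did not follow the Gfap count to its end: it climbed to 5.87 per 1000 in cells with 6 to 10 counts of Gfap and was at 3.39 in those with over 30.

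**Figure D3:**
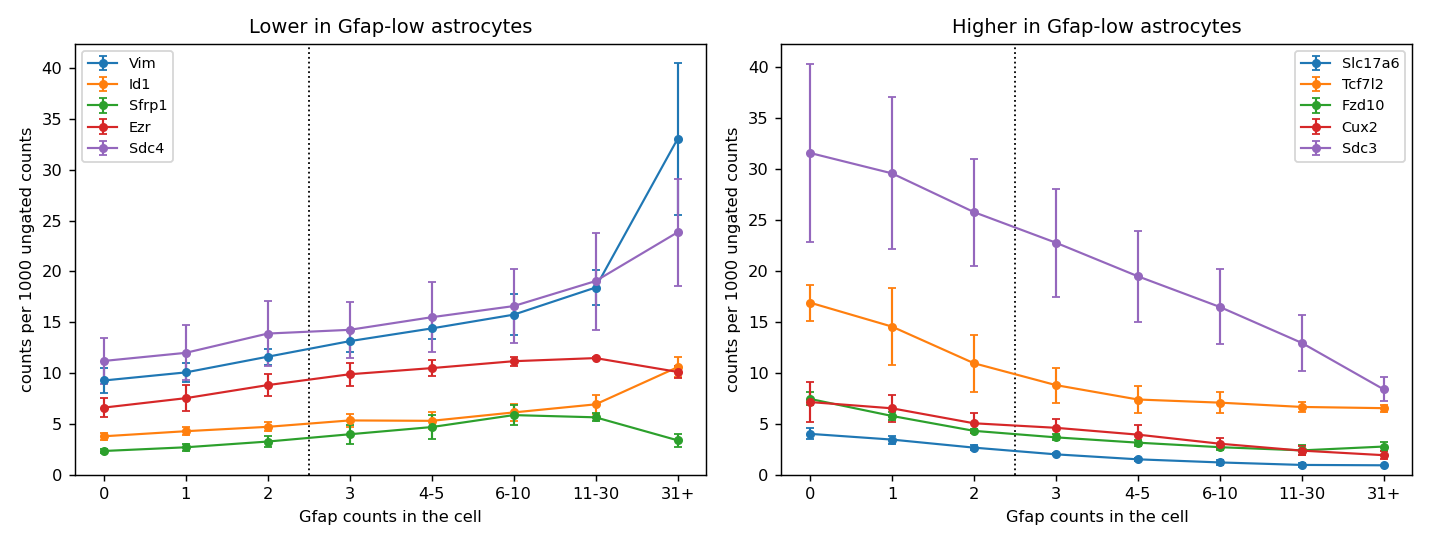
Mean counts per 1000 ungated counts over 4 coverslips (bars: SD) of genes lower (left) and higher (right) in Gfap-low astrocytes, by the number of Gfap counts in the cell; the dotted line is the limit of the gate. Vim climbs from 9.27 at 0 counts of Gfap to 33.02 at over 30, whereas Fzd10, Sdc3, Cux2, Tcf7l2 and Slc17a6 decline mostly below 11 counts, and no gene steps at the limit.

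Gfap-low astrocytes of thalamic-type territory were compared with those of upper-cortical-type territory to show how the same class differs by place. With the 6 genes that define territories left out, 14 of 127 genes were higher (11%) and 44 lower (34.6%) past 1.2-fold. The median log2 difference of all genes was -0.29 with the main scaling, -0.20 by volume and 0.11 with TMM factors, and TMM factors gave 22 higher and 26 lower. All 14 higher calls and 26 of the lower calls held under the 3 scalings. Median counts per cell were 218.5, 188, 263 and 312 in thalamic-type territory and 190, 183, 235 and 295 in upper-cortical-type territory, higher in the thalamic-type cells on every coverslip, and the part of depth was not tested. Fewer of the thalamic-type cells held more than 5 counts of Meg3, 17.8% to 24.0% against 30.5% to 38.5% of the upper-cortical-type cells. The 9 neuronal markers summed to 4.202 to 6.95 counts per cell, against 10.2 to 19.5. Slc17a6, Cux2 and Gad1 among these markers also define the territories, so their sum cannot compare neuronal RNA between the territories. Without the cells over 5 Meg3 counts 10 of the 14 higher and 31 of the 44 lower genes were called again.

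Frizzled receptor genes were called in both directions. Fzd2 stood at 0.603, 0.475, 0.593 and 0.532 per 1000 in thalamic-type territory, against 4.59, 3.63, 4.52 and 3.76 in upper-cortical-type territory. Its log2 difference of -2.90 ± 0.09 (adjusted p = 4.8e-12) was the largest among the lower genes, and its thalamic-type level was not above all blanks. Fzd10 stood at 16.2, 18.3, 20.6 and 17.9, against 10.2, 7.45, 7.24 and 5.45 (log2 1.30 ± 0.13), and Fzd9 at 11.1, 9.06, 11.1 and 8.46, against 4.68, 3.13, 4.10 and 3.45 (1.37 ± 0.08). None of these 3 receptors had overlapping groups. Of 19 Wnt receptor genes 2 were higher and 7 lower, beside 11% and 34.6% of all genes; the lower ones were Fzd2, Fzd3 (log2 -1.03 ± 0.07), Adgra2 (-0.96 ± 0.11), Fzd4 (-0.95 ± 0.10), Reck (-0.82 ± 0.10), Ryk (-0.67 ± 0.07) and Lrp5 (-0.46 ± 0.08). Fzd2, Fzd3, Adgra2 and Fzd4 held under all 3 scalings, and Adgra2 and Ryk were not called without the cells over 5 Meg3 counts (-0.56 and -0.38).

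Of 19 genes of Wnt ligands and their secretion 4 were higher and 2 lower, beside 11% and 34.6% of all genes. Neither of the 2 lower genes held under all 3 scalings. Wnt3 stood at 6.73, 6.66, 7.18 and 7.23 per 1000 in thalamic-type territory, against 0.620, 0.758, 0.803 and 0.880 (log2 3.18 ± 0.09, adjusted p = 3.3e-12). Wls, which carries Wnt proteins to the cell surface, was higher by 1.36 ± 0.10, Wnt4 by 1.22 ± 0.11 and Wnt5a by 0.95 ± 0.09. Sfrp1 was the antagonist gene with the largest difference, with 0.607, 0.890, 0.589 and 0.801, against 2.94, 3.25, 3.59 and 2.85 (log2 -2.13 ± 0.13). Of 10 proteoglycan genes 6 were lower, beside 34.6% of all genes, and none was higher: Sdc1 (-1.69 ± 0.09), Gpc5 (-1.11 ± 0.09), Gpc2 (-0.88 ± 0.10), Gpc4 (-0.87 ± 0.08), Gpc6 (-0.79 ± 0.08) and Gpc1 (-0.44 ± 0.07). The thalamic-type levels of Sfrp1, Adgra2 and Fzd4 and the upper-cortical-type level of Wnt3 were not above all blanks. Gpc4 and Gpc6 are glypicans that astrocytes release to promote excitatory synapses. Gpc1 was at 0.03 without the cells over 5 Meg3 counts and is not read as a difference. Lef1, a Wnt pathway transcription factor gene, was called higher (0.44 ± 0.11) but was lower without those cells (-0.78 ± 0.12), and with coverslip 2, 3 or 4 left out its adjusted p was 0.051, 0.073 and 0.26.

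Of 8 nuclear and patterning factors 2 were higher and 4 lower, beside 11% and 34.6% of all genes. Emx2, a homeobox gene of the cortical field, stood at 0.371, 0.457, 0.363 and 0.366 per 1000, against 1.61, 1.73, 1.81 and 1.53 (log2 -2.11 ± 0.12), and its thalamic-type level was not above all blanks. Id1 was at -1.77 ± 0.09 and Gli3 at -0.84 ± 0.08, whereas Sox2 (0.85 ± 0.06) and Sox9 (0.70 ± 0.06), which maintain neural progenitors and glia, were higher. Ezr was at -1.28 ± 0.09 and Pdgfrb at -1.27 ± 0.08. Apoe stood at 254, 242, 289 and 263, against 153, 122, 158 and 142 (0.87 ± 0.06), and Glul at 23.1, 33.9, 28.5 and 21.8, against 52.7, 66.3, 52.3 and 44.5 (-1.02 ± 0.07). Lipid carrier RNA was thus higher, and glutamine synthetase RNA lower, in thalamic-type cells on every coverslip. Aldh1l1 was higher by 0.44 ± 0.06, and by 0.11 without the cells over 5 Meg3 counts, where it was not called.

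**Figure D4:**
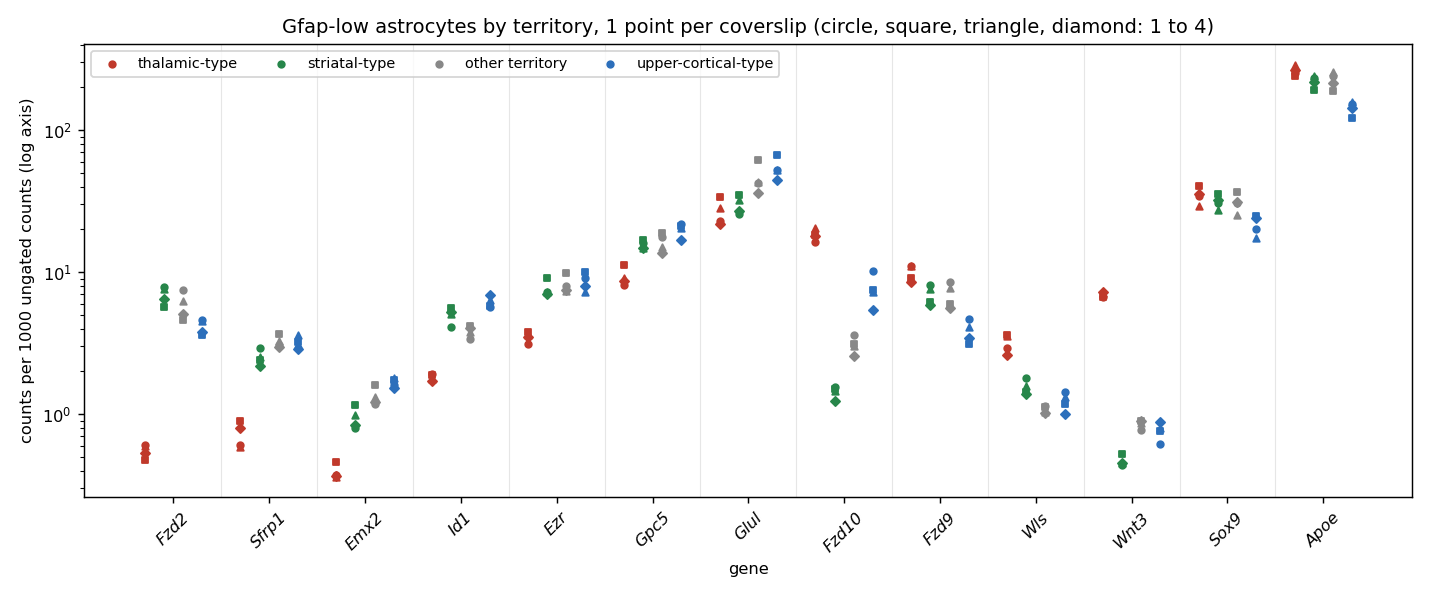
Counts per 1000 ungated counts (log axis) of 13 genes in Gfap-low astrocytes of thalamic-type, striatal-type, other and upper-cortical-type territory, with 1 point per coverslip. Fzd2, Sfrp1, Emx2 and Id1 are lower in thalamic-type territory than in the other 3, whereas Wnt3, Wls and Fzd10 are highest there. Emx2 is also lower in striatal-type than in upper-cortical-type territory.

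Whether these differences belong to the astrocytes or to all cells of a place was tested as the difference between the territory effect in Gfap-low astrocytes and that in OPCs or neurons of the same coverslips, a test added after the data were seen. Of 127 genes, 68 differed from OPCs and 68 from neurons at an adjusted p below 0.05 (53.5% each). Without the cells over 5 Meg3 counts 43 differed from OPCs, 36 of them among those 68, and 65 from neurons, 52 of them among those 68. Between the same territories OPCs had 17 genes higher (13.4%) and 17 lower (13.4%), and neurons had 13 higher (10.2%) and 29 lower (22.8%). For Fzd2 the effect in Gfap-low astrocytes minus that in neurons was -2.46 ± 0.14 on the log2 scale (adjusted p = 9.1e-10), and minus that in OPCs it was -3.37 ± 0.35 (adjusted p = 2.6e-06). Neurons were at -0.43 ± 0.05, with levels not above all blanks, and OPCs at 0.47 ± 0.34. Emx2 was at -1.07 ± 0.13 in OPCs, a difference of -1.03 ± 0.18, and at -0.90 ± 0.08 in neurons, a difference of -1.22 ± 0.16, and both differences passed the test. Wnt3 was higher in all 3 cell classes, by 3.18 in Gfap-low astrocytes, 1.92 ± 0.12 in OPCs and 2.31 ± 0.07 in neurons, and the excess in astrocytes was 1.27 ± 0.15 over OPCs and 0.89 ± 0.12 over neurons. Over OPCs of all territories the levels of Emx2 and Wnt3 were not above all blanks on every coverslip. The size of their territory effects in OPCs, and of the differences from it, is therefore uncertain. Apoe was also higher in all 3 classes, and its effect was not found to differ from that in OPCs (-0.19 ± 0.09, adjusted p = 0.092).

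For 4 genes the calls in Gfap-low astrocytes and OPCs ran in opposite directions. Ezr was at -1.28 in Gfap-low astrocytes and at 2.12 ± 0.09 in OPCs, Id1 at -1.77 and 1.00 ± 0.10, Fzd4 at -0.95 and 0.49 ± 0.11, and Sox9 at 0.70 and -0.39 ± 0.06. All 4 differences passed the test, with adjusted p between 3.0e-11 for Ezr and 1.8e-06 for Fzd4, and all 4 passed it without the cells over 5 Meg3 counts. In OPCs without such cells, however, Sox9 (-0.47 ± 0.05) was called in that direction, whereas Ezr (0.22 ± 0.20), Id1 (-0.16 ± 0.15) and Fzd4 (0.0017 ± 0.15) were not called, so the opposite directions of these 3 calls rest on those cells.

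**Figure D5:**
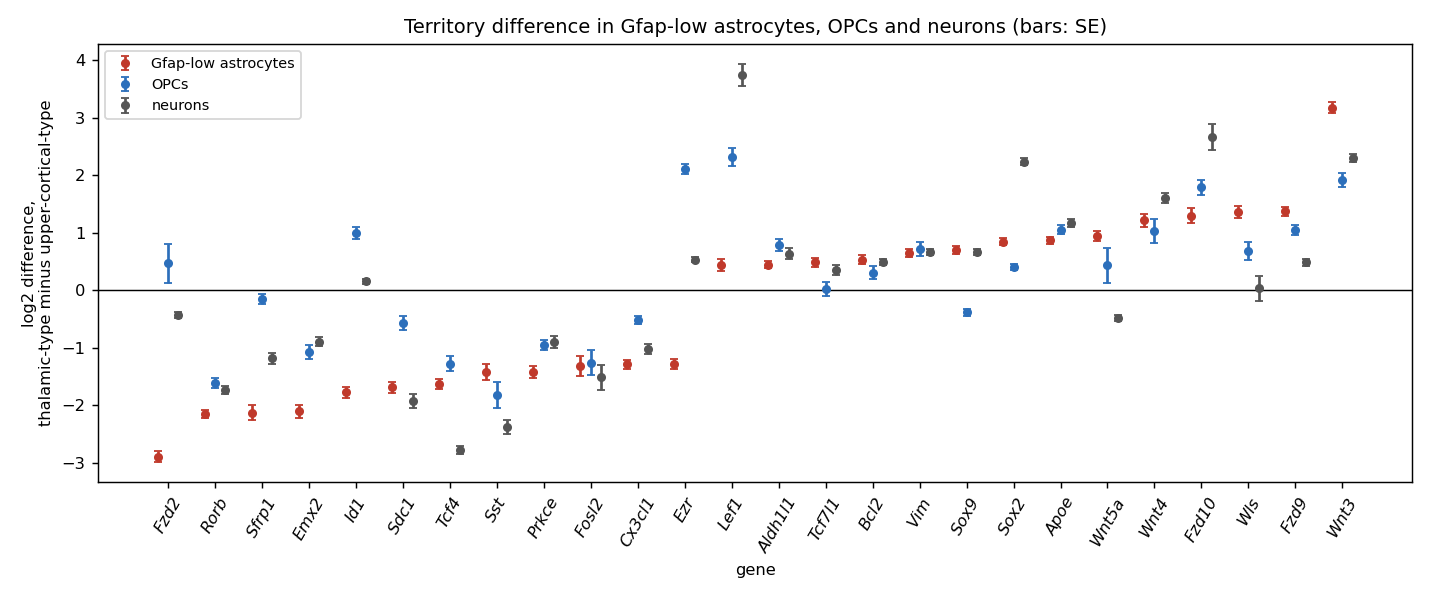
Log2 difference between thalamic-type and upper-cortical-type territory (bars: SE of the edgeR fit over 4 coverslips) for the 12 most lowered and the 14 raised genes in Gfap-low astrocytes, with the same difference in OPCs and neurons. Fzd2, Sfrp1, Id1 and Ezr lie below 0 in Gfap-low astrocytes and lower there than in OPCs or neurons, and Wnt3 and Apoe are raised in all 3 classes; Lef1 turns to -0.78 in Gfap-low astrocytes without the cells over 5 Meg3 counts.

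Gfap-low astrocytes within 200 units of the section outline (2496 cells) were compared with those more than 500 units inside it (21636 cells). Past 1.2-fold, 19 of 133 genes were higher (14.3%) and 13 lower (9.77%). Sox7 stood at 3.70, 3.36, 4.44 and 3.80 per 1000 near the surface, against 1.43, 1.77, 1.84 and 1.53 in the interior (log2 1.22 ± 0.09, adjusted p = 5.6e-07). Sfrp1 stood at 4.48, 4.38, 4.96 and 4.45, against 2.39, 2.64, 2.12 and 1.91 (1.03 ± 0.10). Neither gene had overlapping groups. Also higher were Cux2 (2.24 ± 0.10), Tcf7, a Wnt pathway transcription factor gene (1.05 ± 0.10), Sdc1 (1.00 ± 0.10), Id1 (0.85 ± 0.08), Emx2 (0.79 ± 0.12), Glul (0.67 ± 0.06) and Gpc6 (0.66 ± 0.07). Syt6 (log2 -2.03 ± 0.13), Tcf7l2 (-1.86 ± 0.09), Sst (-1.85 ± 0.19), Wnt3 (-1.73 ± 0.14) and Fzd9 (-0.70 ± 0.08) were lower. The lower levels of Tcf7, Emx2, Syt6, Sst and Wnt3 were not above all blanks. Several of these genes also separated the territories, and the part of territory in the surface comparison was not tested. TMM factors gave 12 higher and 20 lower. Of the 19 higher calls 11 held under the 3 scalings, and of the 13 lower calls 11 did. The genes named here are a part of all calls and were among those that held. Sdc1 was not called without the cells over 5 Meg3 counts (0.60).

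Female and male coverslips, 2 of each, gave no gene that passed edgeR's quasi-likelihood test in Gfap-low astrocytes: 0 of 133 were higher (0%) and 0 lower (0%), with 11 at an unadjusted p under 0.05. The levels of 48 of the 133 genes did not overlap between the sexes, but with 2 coverslips a side the smallest p of an exact permutation test is 0.333. Itgam, an integrin gene of myeloid cells, had the smallest p, with 0.949 and 0.961 per 1000 on female coverslips, against 0.624 and 0.620 on male coverslips (log2 0.62 ± 0.18, adjusted p = 0.31). DESeq2 called Itgam alone (adjusted p = 0.045). Scaled to cell volume, where all genes shift by a median of 0.44, Itgam, Gpc3 and Psmb4 were called. Coverslip 4, a female one, was the deepest of the 4, and the part of depth in these values was not tested.

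The 8 sections, told apart by position alone, were also summed one by one. Gfap-low astrocytes made up 2.83% to 4.69% of the kept cells of a section, with a median of 4.44%, and 40.9% to 57.6% of the astrocyte gate. Aldh1l1 ranged from 20.6 to 34.9 per 1000 over the sections with a median of 29.5, and Apoe from 178 to 271 with a median of 217. Gpc5 ranged from 12.8 to 19.3 and Wnt7a from 3.28 to 6.32.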

How the data were processed

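Each deposited file lists, for every cell, transcript counts of 140 genes and 40 blanks, as whole numbers without normalization by the authors, per the file headers. Volume and position were deposited as other measures, and the headers name no unit for them. How the authors decoded spots and segmented cells is not given in the labels or headers. The labels do not say whether coverslips share mice, so p-values measure the spread between coverslips.

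Cells with under 20 gene counts were left out (863580 cells, 794833 kept). No doublet caller was run, and 0 count profiles were shared between coverslips. Gated cells were summed per coverslip and tested in R 4.3.3 with edgeR 4.0.16, using quasi-likelihood fits, coverslip as block since both groups come from the same sections, summed counts of the 133 ungated genes as offset, glmTreat against 2-fold between cell classes and 1.2-fold among astrocytes, and the plain quasi-likelihood test without a block for sex and, with it, for differences between territory effects. Benjamini-Hochberg adjustment at 0.05 ran over all tested genes (133, or 127 by territory). A called gene also lay above all 40 blanks on every coverslip in its higher group and ran 1 way on all 4 coverslips. Slc1a3, Aqp4, Gfap, Csf1r, Pdgfra, Cldn5 and Meg3 chose the cells and were not tested.

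Alternatives were volume and TMM scaling, DESeq2 1.42.0, only genes above blanks, stricter gates, deeper cells, each coverslip left out, no block, no low-signal squares, no fold minimum and, added after seeing the data, no cells over 5 Meg3 counts. Named genes were the gate genes and Aldh1l1, up to 12 called genes per direction by size, and called members of 9 gene lists. Etv4 and Sox9 against OPCs, the genes by Gfap count and those named with the sections were chosen after their values were seen. The members, lists and tests were chosen with earlier results of these data known. On simulated counts at 4-fold (between cell classes) and 2-fold (among astrocytes) the tests recovered 100% of 40 changed genes (sex 97.5%), with 0% false calls. The simulated counts had no coverslip effect and as many raised as lowered genes, and unchanged genes had no difference at all. They therefore do not give the rate of false calls in the real comparisons. Some items of the panel are not reported here.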

Additional observations from a re-analysis of the deposited data

Results flagged for a closer look

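On 1 of 4 coverslips a value stood apart from the other 3 by more than Dixon's limit for 7 of 132 results tested, and chance flags about 1 in 20 groups. The Gfap-low share of the astrocyte gate beyond 500 units from the outline averaged 45.9%, with 53.8% on coverslip 1 and 42.7% to 44.6% on the others. Log2 differences by coverslip were as follows. Frzb against OPCs was at -1.25, with -1.46 on coverslip 1 and -1.16 to -1.21 on the others. Prkce against Gfap-high astrocytes was at 0.53, with 0.59 on coverslip 3 and 0.50 to 0.52 elsewhere. Fzd2 between thalamic-type and upper-cortical-type territory was at -2.90, with -2.82 on coverslip 4 and -2.93 on each of the others. Near the surface against the interior, Tcf4 was at 0.86 with 0.36 on coverslip 2, Cux2 at 2.24 with 2.68 on coverslip 3, and Tcf7 at 1.05 with 1.31 on coverslip 1. All of these kept 1 direction on the 4 coverslips.

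The territory effect in Gfap-low astrocytes minus that in OPCs ran against the effect in OPCs for the 4 genes with opposite calls. It was 1.09 for Sox9, -2.77 for Id1, -3.41 for Ezr and -1.44 for Fzd4 on the log2 scale, each by an interaction test in edgeR over 4 coverslips. Without the cells over 5 Meg3 counts these values were 0.93, -1.98, -1.83 and -1.03, all with adjusted p below 0.05. Ezr had the largest such difference, and its size depends on those cells.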

How the results depend on the processing

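Genes called higher and lower are given in that order. Without a fold minimum the counts were 29 and 60 against OPCs, 38 and 42 against neurons, 47 and 31 against Gfap-high astrocytes, and 38 and 23 near the surface, more by construction. Lower calls against OPCs were 4 by cell volume, 5 with TMM factors and 5 with DESeq2; lower calls against neurons were 7 with TMM factors and 6 with DESeq2. DESeq2 gave 16 higher calls against Gfap-high astrocytes. Between territories TMM factors gave 22 and 26, and DESeq2 25 lower. Near the surface the higher calls were 11 by volume, 12 with TMM factors and 11 with DESeq2, the lower calls 20 with TMM factors. Between the sexes volume gave 3 higher, DESeq2 1 and the filter on blanks 1. Without cells over 5 Meg3 counts, 16 genes were lower against OPCs and 29 against neurons. With strips of at most 100 and over 1000 units 7 genes were lower near the surface. The cause of these shifts was not tested.

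Both groups of each comparison came from the same sections, so coverslips pair them. With no replicate block the calls were 6 lower against OPCs, 14 and 8 against Gfap-high astrocytes and 7 lower near the surface; other counts moved by less than 1.5 times.

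Leaving out 1 coverslip gave 13 and 9 to 11 against OPCs, 21 to 22 and 17 to 21 against neurons, 22 to 25 and 16 to 20 against Gfap-high astrocytes, 13 to 17 and 42 to 47 between territories, 15 to 21 and 10 to 13 near the surface, and 0 to 1 and 0 to 1 between the sexes.

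A Gfap limit of 1 and thinning to 100 counts gave shares of 3.33% and 3.27% of kept cells, 41.2% and 59.7% of the gate, 71.1% and 84.3% in thalamic-type, 52.4% and 70.6% in upper-cortical-type territory, 28.9% and 50.7% within 200 units and 38.1% and 55.2% beyond 500 units of the outline.

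Single genes turned sign only where the value was small, except Lef1. Syt6 against Gfap-high astrocytes was at -0.0039 with a stricter gate. Between territories Tcf3 was at 0.018 with TMM factors, and Gpc1 at 0.030 and Lef1 at -0.78 without cells over 5 Meg3 counts. Near the surface Fosl2 was at 0.091 with the narrower strips, and Bcl11b at 0.13 without cells over 5 Meg3 counts. The lower level was not above all blanks in 6, 19, 3, 12 and 9 of the called genes in the 5 comparisons in the order above. The part of depth in this was not tested.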

Other observations

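Striatal-type territory, compared with upper-cortical-type territory as an addition after the data were seen, had its own set of values in Gfap-low astrocytes. Of 127 genes, 20 were higher (15.7%) and 30 lower (23.6%) past 1.2-fold. The comparison shares its upper-cortical-type cells with the thalamic-type one, so values are set side by side and not tested against each other. Fzd10 was at -2.37 ± 0.09 (SE) on the log2 scale in striatal-type and at 1.30 in thalamic-type cells, with 1.54, 1.4999, 1.44 and 1.24 per 1000 in striatal-type territory on coverslips 1 to 4. Fzd2 was at 0.75 ± 0.07 in striatal-type cells and at -2.90 in thalamic-type cells. Lef1 was at -1.59 ± 0.09. Glul (-0.84 ± 0.05) and Emx2 (-0.84 ± 0.10) were lower, whereas Vim (0.99 ± 0.07), Sdc4 (0.94 ± 0.07), Sox2 (0.77 ± 0.05) and Apoe (0.62 ± 0.02) were higher. Sox10 (1.27 ± 0.10), of the oligodendrocyte lineage, was higher too. Of the striatal-type cells 20.9% to 23.7% held more than 5 counts of Meg3, against 30.5% to 38.5% of the upper-cortical-type cells. Without such cells 16 genes were higher and 23 lower, and all of the genes named here were called in the same direction: Fzd10 at -2.74, Fzd2 at 0.60, Lef1 at -2.11, Glul at -1.01, Emx2 at -1.02, Vim at 0.87, Sdc4 at 0.78, Sox2 at 0.58, Apoe at 0.44 and Sox10 at 1.44.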
